A study of Macaca mulatta with 2 samples.

Results

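The genes described here were 40 genes of the vascular endothelium and of the barrier it forms around the optic nerve. A gene entered when its symbol in the table of levels was on the list, and 38 of the 40 symbols were found among the 16684 listed genes. *ADGRL4* and *ADGRF5* had no row and were not analysed here. Total RNA of optic nerve from untreated, wild-type rhesus macaques (*Macaca mulatta*) was sequenced, 1 condition with 2 libraries named Rep1 and Rep2. The sample descriptions give 2 animals, whereas the methods of the study give a single 12-year-old male whose nerves were taken after death, so the spread between the libraries may lie within 1 animal. Whole nerve was used, with no sorting of cells, and strain was not given in the sources used here.

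Endothelial cells line every vessel and are held together by adherens junctions, built on VE-cadherin, and by tight junctions, built on claudins and occludin. In the brain and in most of the optic nerve this lining is closed. Claudin-5 seals the gap between cells, efflux pumps return drugs to the blood, few vesicles cross the cell, and the diaphragm protein PLVAP, common in leaky vessels, is scarce. Vascular endothelial growth factors (VEGFs) and angiopoietins act on receptors of these cells, and factors of the ETS and SOX families set their identity.

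Levels were given in TPM, the share of a transcript among the length-corrected reads of a library, so levels of different genes can be set side by side. Rep1 was the shallower library, since 1 of its reads was worth as much as 17.2 reads of Rep2. The smallest whole read numbers that give each gene's ratio, which are lower bounds, are quoted below as reads. Rep1 listed 6425 genes at 0 and Rep2 listed 2082. Among 14693 genes with a level in Rep1, Rep2 or both, 75.9% were lower in Rep1 than in Rep2, and a scaling by the median of ratios corrected a general log2 shift of -1.19 of Rep1 against Rep2. Both libraries held the markers of optic nerve glia, with *MBP* at 43721 TPM in Rep1 against 199595 TPM in Rep2 and *GFAP* at 658 and 4331 TPM. The 9 photoreceptor genes examined summed to 4132 TPM in Rep1 against 6.52 TPM in Rep2, all 9 being above 0 in Rep1 and 8 in Rep2, where *CRX* was listed at 0. With a single condition no test between groups was possible, and differences between Rep1 and Rep2 are given as spread. In bulk tissue, fewer endothelial cells and less RNA per endothelial cell cannot be told apart.

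As a group the 38 endothelial and barrier genes stood near the middle of all genes. Their summed level was 661.0 TPM in Rep1 against 1451 TPM in Rep2, which is 0.0661% and 0.145% of all TPM. The median member was at 2.68 TPM in Rep1 against 10.3 TPM in Rep2, beside 3.51 and 11.7 TPM for all genes above 0 in at least 1 library. On the mean of both libraries the median member was at 6.67 TPM, beside 9.55 TPM for all genes. Of the members, 18 lay above that median of all genes, 6 lay above percentile 75 and 6 below percentile 25. *RAMP2*, *TJP1* and *VEGFA* led the order, and *ERG*, *SOX7* and *ICAM2*, each under 1 TPM on the mean, ended it. The spread was wide, as the SD was at least as large as the mean for 18 members, among them the 11 that were listed at 0 in Rep1. When the members were ordered by mean level, the ranges of both libraries overlapped in all 37 pairs of neighbours. Neighbours have close means and most ranges span the general shift between the libraries, so this overlap was nearly given in advance. It does not tell whether neighbours differ. Of these pairs, 6 stood in the same order in both libraries. Over all 703 pairs of members, 454 (64.6%) had the same order in both libraries, 194 had the opposite order and 55 were tied at 0 in Rep1. Among the 27 members above 0 in both libraries, 252 of 351 pairs (71.8%) kept their order. The share for pairs of all genes was not computed, so these shares do not set the members apart from other genes.

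**Figure D1:**
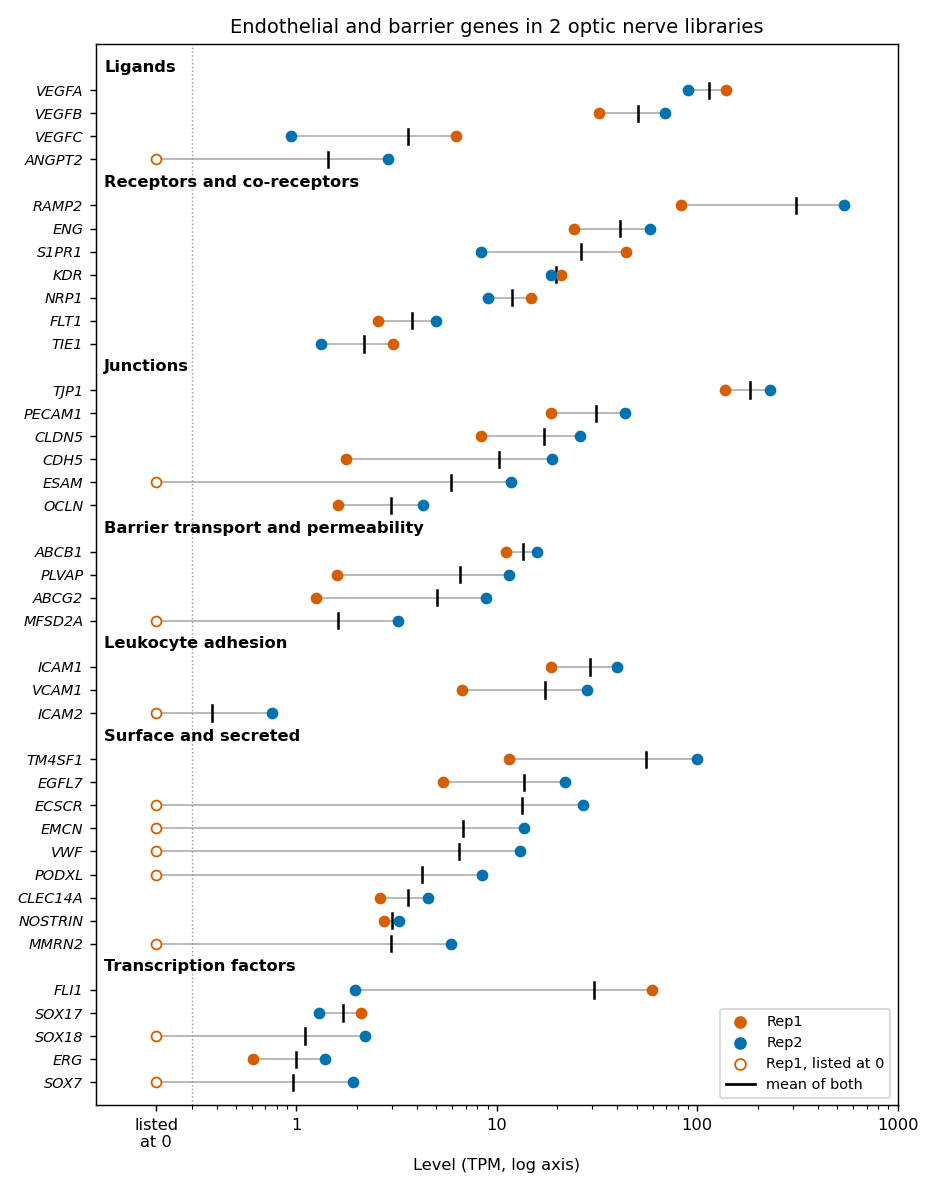
Level of each of the 38 members in TPM on a log axis, grouped by role. Orange points are Rep1, blue points Rep2, open orange points mark the 11 members listed at 0 in Rep1, and black ticks are the mean of both libraries, which runs from 311 TPM in *RAMP2* to 0.380 TPM in *ICAM2*.

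Of the ligands, *VEGFA*, the main growth factor of vessels, was the most abundant. It reached 139 TPM in Rep1 against 89.8 TPM in Rep2, a mean of 115 ± 34.9 TPM (SD, n = 2 libraries) at percentile 90.3 of all genes, and rested on at least 35 and 388 reads. Its relative *VEGFB*, a ligand of *FLT1*, was at 32.5 TPM in Rep1 against 69 TPM in Rep2 (mean 50.7 ± 25.8 TPM, SD, n = 2). *VEGFA* was thus above *VEGFB* in both libraries, 4.29 times in Rep1 and 1.30 times in Rep2. *VEGFC*, the growth factor best known from lymphatic vessels, was at 6.29 TPM in Rep1 against 0.936 TPM in Rep2. *ANGPT2*, an angiopoietin that loosens vessels through the receptor TEK, had 2.86 TPM in Rep2 and a listing at 0 in Rep1. The order *VEGFA*, *VEGFB*, *VEGFC* held in both libraries, whereas *ANGPT2* was above *VEGFC* in Rep2 and below it in Rep1. Exons of *ANGPT2* overlap those of *MCPH1* on the opposite strand, and the use of strand in counting was not given in the sources used here, so that its level is uncertain.

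The receptors were led by *RAMP2*, which encodes the partner that turns the calcitonin receptor-like receptor into a receptor for adrenomedullin. *RAMP2* was at 82.7 TPM in Rep1 against 540 TPM in Rep2, with a mean of 311 ± 323 TPM (SD, n = 2) at percentile 96.7, from at least 47 and 5272 reads. It made up 12.5% of the summed level of all members in Rep1 and 37.2% in Rep2. *ENG*, which encodes endoglin, a co-receptor for TGF-beta family ligands, came next on the mean and in Rep2, at 24.3 TPM in Rep1 against 57.8 TPM in Rep2. Both were higher in Rep2 as deposited, and *ENG* was level between the libraries once scaled by the median of ratios, with a log2 difference (Rep1 minus Rep2) of -0.06.

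Among the VEGF receptors, *KDR* (VEGFR2), the main signalling receptor for VEGF-A, had the closest pair of values in TPM as deposited. It was at 20.8 TPM in Rep1 against 18.7 TPM in Rep2, a mean of 19.8 ± 1.53 TPM (SD, n = 2), from at least 43 and 662 reads. *FLT1* (VEGFR1), which binds VEGF-A and VEGF-B and can act as a decoy, was lower, at 2.56 TPM in Rep1 against 4.95 TPM in Rep2, and *KDR* exceeded it 8.14 times in Rep1 and 3.77 times in Rep2. *NRP1*, the neuropilin that helps VEGF-A bind KDR and also serves semaphorins in axons, was at 14.8 TPM in Rep1 against 9.06 TPM in Rep2. *TIE1*, the partner of the angiopoietin receptor, was at 3.02 TPM in Rep1 against 1.32 TPM in Rep2, on at least 2 and 15 reads. The order *KDR*, *NRP1*, *FLT1* was the same in both libraries, and *TIE1* was above *FLT1* in Rep1 and below it in Rep2. Once scaled by the median of ratios, *KDR* was more than 2-fold higher in Rep1, with a log2 difference of 1.28. *FLT1* was then the closest of the VEGF receptors, at 0.19.

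*S1PR1*, the receptor for sphingosine 1-phosphate that steadies endothelial junctions and is also made by astrocytes and lymphocytes, was at 44.0 TPM in Rep1 against 8.36 TPM in Rep2. Its values rested on at least 34 and 111 reads and differed by 5.26 times. All 7 listed receptors were above 0 in both libraries, 4 of them being higher in Rep1 as deposited (*KDR*, *NRP1*, *TIE1* and *S1PR1*) and 5 with the median-of-ratios scaling, when *FLT1* joined them. The median log2 difference of the 7 receptors was 0.15 as deposited and 1.28 after scaling. For the 10168 genes above 0 in both libraries, as these 7 were, the median was -0.98 and 0. Of those 10168 genes, 3456 had their larger value in Rep1 before scaling and 5084 with it.

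The junction genes were led by *TJP1*, which encodes ZO-1, a scaffold of tight junctions that epithelia, glia and many other cells also use. *TJP1* was at 137 TPM in Rep1 against 230 TPM in Rep2 (mean 183 ± 65.7 TPM, SD, n = 2, percentile 94.1), on at least 127 and 3665 reads. *PECAM1*, an adhesion molecule shared by endothelial cells, platelets and leukocytes, was at 18.7 TPM in Rep1 against 43.5 TPM in Rep2 (mean 31.1 ± 17.5 TPM, SD, n = 2). *CLDN5*, the claudin of barrier vessels, was at 8.38 TPM in Rep1 against 26.1 TPM in Rep2 (mean 17.2 ± 12.5 TPM, SD, n = 2), on at least 2 and 107 reads. *CDH5*, which encodes VE-cadherin, was at 1.77 TPM in Rep1, on at least 3 reads, and at 18.8 TPM in Rep2, on at least 548. *OCLN*, which encodes occludin, was at 1.62 TPM in Rep1 against 4.28 TPM in Rep2. *ESAM*, an adhesion molecule of endothelial tight junctions, was at 11.8 TPM in Rep2 but not detected in Rep1. All 6 junction genes were lower in Rep1 as deposited, beside 75.9% of all genes, but with the median-of-ratios scaling *TJP1* was higher there. The log2 differences of the other 5 then ran from -0.02 in *PECAM1* and -0.15 in *OCLN*, both close to level, to -3.14 in *ESAM*. Of the 6 genes, 2 were at least 2-fold lower in Rep1 after scaling, beside 33.8% of all genes. The order *TJP1*, *PECAM1*, *CLDN5*, *CDH5*, *OCLN* was the same in both libraries.

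Ratios between members within 1 library do not change when the whole library is scaled. *ENG* stood at 1.30 times *PECAM1* in Rep1 and 1.33 times in Rep2, the closest agreement of the ratios computed. In Rep1 it rested on at least 19 reads of *ENG* and 11 of *PECAM1*. *CLDN5* reached 0.447 times *PECAM1* in Rep1 and 0.60 times in Rep2. *CDH5* reached 0.0946 and 0.433 times *PECAM1*, and *RAMP2* reached 4.42 and 12.4 times, so these 2 genes were lower in Rep1 also against a fellow endothelial gene. In the other direction, *KDR* stood at 11.8 times *CDH5* in Rep1 and at 0.992 times in Rep2, and *S1PR1* at 2.35 and 0.192 times *PECAM1*. The values in Rep1 of *CDH5* and *CLDN5* may rest on very few reads, and the ratios are given without an interval for that reason.

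The genes of barrier transport were modest in level. *ABCB1*, which encodes the efflux pump P-glycoprotein, was at 11.1 TPM in Rep1 against 15.8 TPM in Rep2, a mean of 13.5 ± 3.39 TPM (SD, n = 2) from at least 8 and 197 reads. *ABCG2*, the other main efflux pump of barrier vessels, was at 1.25 TPM in Rep1 against 8.80 TPM in Rep2, and *ABCB1* was above it in both libraries, 8.82 times in Rep1 and 1.80 times in Rep2. The *ABCG2* value in Rep1 may rest on as few as 3 reads, and with 1 TPM added to both genes the ratio there was 5.35. *MFSD2A*, which carries docosahexaenoic acid in lysolipid form and restrains vesicle transport across the endothelium, was at 3.22 TPM in Rep2 but not detected in Rep1. *PLVAP*, the diaphragm protein of fenestrated and leaky vessels, was at 1.59 TPM in Rep1, on at least 1 read, and at 11.5 TPM in Rep2, on at least 124. *PLVAP* was below *CLDN5* in both libraries, at 0.190 times its level in Rep1 and 0.441 times in Rep2. It was above 0 in both, and vessels of the nerve, of its sheaths and of any adjoining tissue were not separated.

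Of the molecules that let leukocytes adhere, *ICAM1* was at 18.7 TPM in Rep1 against 39.7 TPM in Rep2 (mean 29.2 ± 14.8 TPM, SD, n = 2), on at least 11 and 401 reads. *VCAM1*, which astrocytes and fibroblasts can also make, was at 6.67 TPM in Rep1 against 28.1 TPM in Rep2. *ICAM1* was above *VCAM1* in both libraries, 2.80 times in Rep1 and 1.41 times in Rep2. *ICAM2*, usually present on resting endothelium, was the lowest member of all, at 0.759 TPM in Rep2 but not detected in Rep1, and its exons overlap *PRR29* on the opposite strand. All 3 genes were lower in Rep1 as deposited, again beside 75.9% of all genes, and *ICAM1* changed sides under the scaling by the median of ratios.

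The surface and secreted genes ranged from *NOSTRIN*, closely paired as deposited, to several that were listed at 0 in Rep1. *TM4SF1*, a small membrane protein abundant in endothelium and in several other cells, was at 11.5 TPM in Rep1 against 100 TPM in Rep2, from at least 16 and 2389 reads. *EGFL7*, a secreted factor of vessels whose gene also holds the microRNA gene *MIR126*, was at 5.39 TPM in Rep1 against 21.8 TPM in Rep2. *ECSCR*, a regulator of endothelial migration and survival, stood at 26.9 TPM in Rep2, *EMCN*, a sialomucin of veins and capillaries, at 13.6 TPM, and *VWF*, the clotting factor stored by endothelium and platelets, at 13 TPM, and all 3 were listed at 0 in Rep1. *PODXL*, another sialomucin, was at 8.48 TPM and *MMRN2*, a matrix protein that binds CLEC14A, at 5.89 TPM in Rep2, both again listed at 0 in Rep1. *CLEC14A* itself was at 2.61 TPM in Rep1 against 4.56 TPM in Rep2, and *NOSTRIN*, which guides endothelial nitric oxide synthase inside the cell, was at 2.75 and 3.24 TPM. All 9 were lower in Rep1 as deposited, beside 75.9% of all genes, and 5 were listed at 0 there, beside 30.4% of all genes above 0 in Rep2. Of these 9, *CLEC14A* and *NOSTRIN* were higher in Rep1 after scaling by the median of ratios.

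Endothelial transcription factors were low, except for *FLI1* in Rep1. *ERG*, the ETS factor that maintains endothelial identity, was at 0.606 TPM in Rep1 against 1.39 TPM in Rep2. Of the SOX factors of vessels, *SOX17*, best known from arteries, was at 2.11 TPM in Rep1 against 1.30 TPM in Rep2. *SOX7* was at 1.92 TPM and *SOX18* at 2.20 TPM in Rep2, and both were listed at 0 in Rep1. *FLI1*, an ETS factor of endothelium and of blood-forming lineages such as megakaryocytes, and also of microglia, was at 59.2 TPM in Rep1 against 1.96 TPM in Rep2. These values rested on at least 197 and 112 reads and differed by 30.2 times. *FLI1* was above *ERG* in both libraries, 97.8 times in Rep1 and 1.41 times in Rep2. The *ERG* value in Rep1 may rest on as few as 2 reads, so the size of the ratio there is uncertain. With 1 TPM added to both genes the ratio was 37.5 in Rep1 and 1.24 in Rep2.

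*FLI1*, *S1PR1* and *VEGFC* were the only members at least 5 times higher in TPM in Rep1 than in Rep2, and 11.8% of the 10168 genes above 0 in both libraries were. These 3 are also the only members at least 2-fold higher in Rep1 on the log2(TPM + 1) scale as deposited. Of the 9 photoreceptor genes, which summed to 4132 TPM in Rep1 against 6.52 TPM in Rep2, 8 were higher in Rep1 too. *GNAT1* alone was at 2763 TPM in Rep1, and *SAG* was at 1.74 TPM in Rep1 against 1.82 TPM in Rep2. *PROX1*, a factor of lymphatic vessels and of retinal interneurons, was higher in Rep1, at 77.3 and 3.27 TPM. The other 3 lymphatic markers (*LYVE1*, *PDPN* and *CCL21*) were lower there. The part of photoreceptor genes and *PROX1* in the levels of *FLI1*, *S1PR1* and *VEGFC* was not tested.

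**Figure D2:**
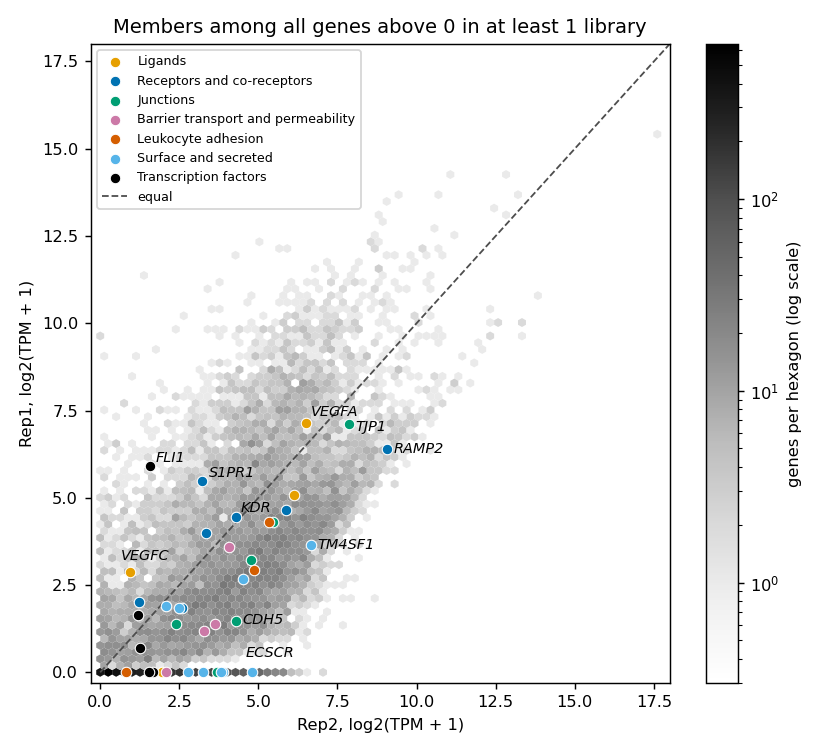
Level in Rep1 (vertical) against Rep2 (horizontal), both as log2(TPM + 1), for the 14693 genes above 0 in at least 1 library (grey hexagons, darker for more genes) and the 38 members (points coloured by role). The dashed line marks equal levels, *FLI1* and *S1PR1* lie above it, and the 11 members on the bottom edge were listed at 0 in Rep1.

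Counted together, 30 of the 38 members were lower and 8 higher in Rep1 as deposited, beside 75.9% of all genes that were lower. At least 2-fold lower in Rep1 on the log2(TPM + 1) scale were 23 members (60.5%), beside 51.3% of all genes, and at least 2-fold higher were 3 (7.89%), beside 14.8% of all genes. After scaling by the median of ratios, 15 members (39.5%) were at least 2-fold lower, beside 33.8% of all genes, and 8 (21.1%) at least 2-fold higher, beside 23.7%. The share of lower genes among those 2-fold apart was 88.5% as deposited and 65.2% after scaling for the members, beside 77.6% and 58.8% for all genes. The median log2 difference of the 38 members was -1.20 as deposited, beside -1.07 for all genes above 0 in at least 1 library. Among the 27 members above 0 in both libraries it was -0.74, beside -0.98 for all 10168 such genes, and after scaling it was 0.10 beside 0. Within the 27 the differences ran from -3.01 in *TM4SF1* to 4.35 in *FLI1*, and 7 members (*VEGFB*, *FLT1*, *TJP1*, *ABCB1*, *ICAM1*, *CLEC14A* and *NOSTRIN*) were lower in Rep1 as deposited and higher after scaling.

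**Figure D3:**
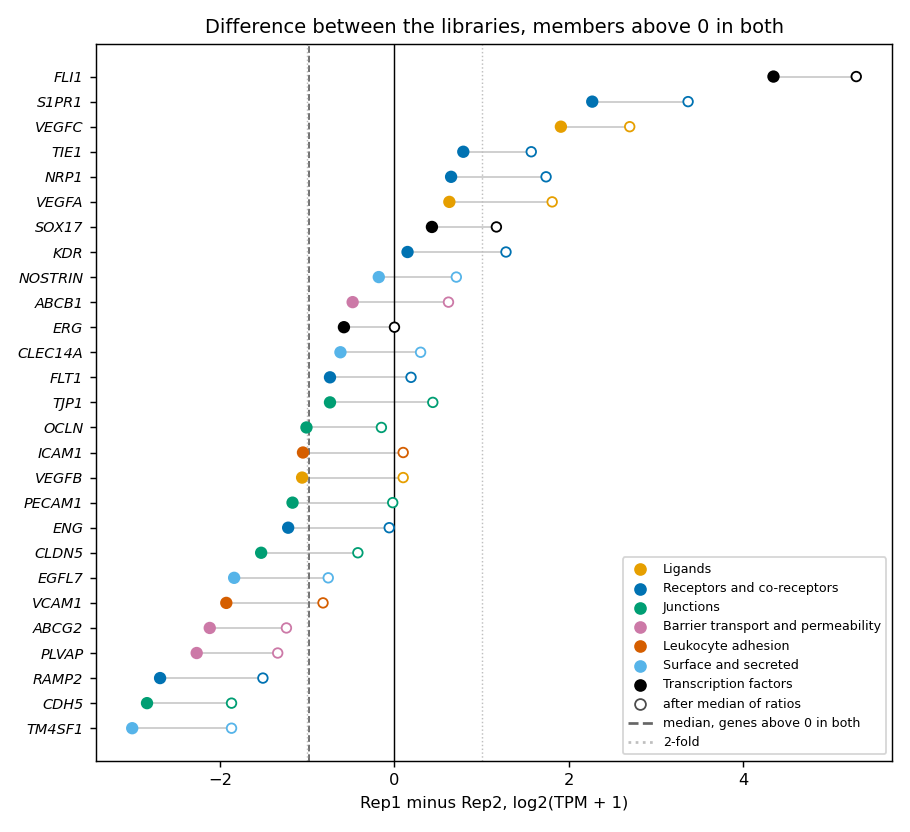
Difference between the libraries (Rep1 minus Rep2 on the log2(TPM + 1) scale) of the 27 members above 0 in both, filled as deposited and open after scaling by the median of ratios, coloured by role. The dashed line at -0.98 is the median of all 10168 genes above 0 in both libraries, and the dotted lines mark a 2-fold difference. Filled points run from -3.01 in *TM4SF1* to 4.35 in *FLI1*.

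The 11 members listed at 0 in Rep1 make up 28.9% of the 38, beside 30.4% of all genes above 0 in Rep2. They were the ligand *ANGPT2*, the junction gene *ESAM*, the lipid carrier *MFSD2A*, the adhesion gene *ICAM2*, the surface and secreted genes *ECSCR*, *EMCN*, *VWF*, *PODXL* and *MMRN2*, and the factors *SOX7* and *SOX18*. How often a gene was listed at 0 in Rep1 followed its level in Rep2. Of genes above 0 and up to 1 TPM in Rep2, 77.5% were listed at 0 in Rep1, and 1 of the 2 members was (*ICAM2*). Of genes above 1 and up to 10 TPM, 42.6% were, beside 6 of 17 members (35.3%). Of genes above 10 and up to 100 TPM, 10.2% were, beside 4 of 17 members (23.5%), namely *ESAM*, *EMCN*, *VWF* and *ECSCR*. Above 100 TPM, 0.129% of genes and neither of the members, *TJP1* and *RAMP2*, were listed at 0. A value of 0 in Rep1 thus shows that the transcript was not detected at that depth. For a further 8 members the smallest whole read number in Rep1 was 3 or fewer, which is a lower bound, so their true read numbers may be higher.

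**Figure D4:**
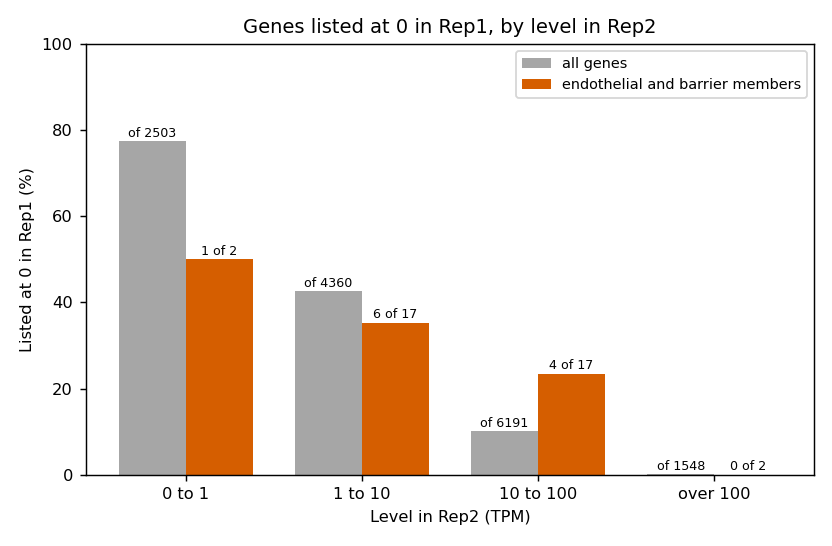
Percentage of genes listed at 0 in Rep1 (vertical axis) in 4 ranges of level in Rep2 (horizontal axis, TPM), for all genes (grey) and for the 38 members (orange), with the number of genes in each range. The bars fall from 77.5% to 0.129% for all genes, and 4 of the 17 members between 10 and 100 TPM were listed at 0.

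The stretches just before the gene starts are shown for 5 members on which the description above turns, namely the most abundant (*RAMP2*), the barrier claudin (*CLDN5*), the member furthest towards Rep1 (*FLI1*), the most abundant of those listed at 0 in Rep1 (*ECSCR*), and *EMCN*, 1 of 2 members whose stretch holds letters of both factor families. Each runs 5′ to 3′ on the strand of the gene over the 250 bases before the outermost annotated start, read from the Mmul_10 genome with the RefSeq annotation, so a gene with several starts has others not shown. Capitals mark the core letters of ETS factors (AGGAAG or CCGGAA) and of SOX factors (AACAAT), searched on both strands. The ETS motifs cannot share the same core.

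*RAMP2*, a gene of chr16 on the plus strand, bases chr16:53892932-53893181: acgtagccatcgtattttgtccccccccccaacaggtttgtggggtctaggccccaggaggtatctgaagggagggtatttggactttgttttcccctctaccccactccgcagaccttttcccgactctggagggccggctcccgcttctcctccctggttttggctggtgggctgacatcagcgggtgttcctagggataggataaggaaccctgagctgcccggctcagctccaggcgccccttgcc

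*CLDN5*, a gene of chr10 on the plus strand, bases chr10:33122631-33122880: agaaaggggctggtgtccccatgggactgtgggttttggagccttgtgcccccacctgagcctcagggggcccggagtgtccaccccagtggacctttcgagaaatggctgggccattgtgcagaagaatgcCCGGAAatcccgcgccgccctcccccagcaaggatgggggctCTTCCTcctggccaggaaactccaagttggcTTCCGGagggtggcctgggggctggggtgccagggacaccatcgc

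*FLI1*, a gene of chr14 on the plus strand, bases chr14:121409531-121409780: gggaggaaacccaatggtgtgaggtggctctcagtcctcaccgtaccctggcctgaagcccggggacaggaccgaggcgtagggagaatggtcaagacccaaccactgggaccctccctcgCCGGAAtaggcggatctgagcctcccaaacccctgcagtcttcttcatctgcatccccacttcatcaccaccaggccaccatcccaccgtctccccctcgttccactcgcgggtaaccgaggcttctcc

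*ECSCR*, a gene of chr6 on the minus strand, bases chr6:136869980-136870229: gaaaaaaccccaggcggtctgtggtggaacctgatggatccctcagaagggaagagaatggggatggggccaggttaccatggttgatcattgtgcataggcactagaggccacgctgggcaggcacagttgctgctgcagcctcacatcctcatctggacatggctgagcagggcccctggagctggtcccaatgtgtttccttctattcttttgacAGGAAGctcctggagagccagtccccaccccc

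*EMCN*, a gene of chr5 on the minus strand, bases chr5:98880759-98881008: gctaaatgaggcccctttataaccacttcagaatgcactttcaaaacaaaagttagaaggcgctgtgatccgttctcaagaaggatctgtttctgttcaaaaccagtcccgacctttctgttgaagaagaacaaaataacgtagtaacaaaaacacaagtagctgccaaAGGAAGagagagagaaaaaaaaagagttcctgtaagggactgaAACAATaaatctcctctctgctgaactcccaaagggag

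The stretch of *CLDN5* held 3 ETS matches, starting 118, 76 and 45 bases before the gene start, and that of *RAMP2* held none. *FLI1* had 1 ETS match 129 bases before its start and *ECSCR* had 1 at 32 bases. *EMCN* had an ETS match at 81 bases and a SOX match at 38 bases. Over all 38 members, AGGAAG was present in 11 stretches (28.9%), beside 25.9% of the 16263 protein-coding genes read in the same way. CCGGAA was present in 5 (13.2%), beside 14%, and AACAAT in 4 (10.5%), beside 6.62%. The shares of both ETS motifs were near those of all genes, the SOX count rests on 4 genes, and a match describes letters, not a bound site. The median GC content was 61.6% in the members' stretches and 59.2% in all of them.

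Position also bears on how reads were assigned. *RAMP2* spans chr16:53893182-53895455 and *CLDN5* chr10:33122881-33125241, both on the plus strand, and neither shares exonic bases with another annotated gene. *FLI1* spans chr14:121409781-121535627, with 5 annotated transcripts and no exon overlap. In the RefSeq annotation, exons of *ENG*, *ERG*, *PODXL* and *MMRN2*, besides *ANGPT2* and *ICAM2*, overlap a gene on the opposite strand. For *MMRN2* that gene is *SNCG*, a gene of retinal ganglion cells. The study names a RefGene annotation, which was not read here, so whether it holds these neighbours is not known. These levels may carry the same uncertainty as that of *ANGPT2*.

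Further genes of the same pathways were taken from 4 lists, whose counts stand beside 51.3% of all genes at least 2-fold lower and 14.8% at least 2-fold higher in Rep1 as deposited. Of 14 listed genes of angiogenic signalling, 9 were at least 2-fold lower and 2 at least 2-fold higher in Rep1, and 6 and 3 once scaled, with a median log2 difference of -1.20 as deposited. *NRP2*, the neuropilin that serves VEGF-C, had the highest mean, carried by Rep2, at 5.73 TPM in Rep1 against 44.1 TPM in Rep2. *PGF*, a ligand of FLT1, lay furthest towards Rep2, at 0.701 and 32.8 TPM, and *TEK*, the angiopoietin receptor, furthest towards Rep1, at 6.10 and 1.36 TPM. In Rep2 *PGF* was thus above its receptor *FLT1*, and in Rep1 below it. Delta-like 4 and apelin genes were scarce, as *DLL4* was at 0.879 TPM and *APLN* at 1.41 TPM in Rep2 and both were listed at 0 in Rep1.

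Of 11 other tight junction genes, 7 were at least 2-fold lower and 1 at least 2-fold higher in Rep1 as deposited, and 5 and 2 once scaled. *CTNNB1*, which encodes beta-catenin of adherens junctions and of Wnt signalling in many cells, had the highest mean, carried by Rep1, at 860 TPM in Rep1 against 275 TPM in Rep2, and lay furthest towards Rep1. *F11R*, a junctional adhesion molecule, was at 15.9 TPM in Rep2 but not detected in Rep1. *JAM3* and *JAM2*, of the same family, stood at 98.1 and 23.4 TPM in Rep1 and 377 and 195 TPM in Rep2. Among claudins, *CLDN5* was above *CLDN1* in both libraries, *CLDN1* being at 0.505 TPM in Rep1 against 11.2 TPM in Rep2, and *CLDN3* was listed at 0 in both.

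Of 14 barrier carriers, 9 were at least 2-fold lower and 2 at least 2-fold higher in Rep1 as deposited, and 7 and 3 once scaled. *SLC2A1*, the glucose transporter GLUT1 of barrier vessels, which erythrocytes also carry, had the highest mean, carried by Rep1, at 388 TPM in Rep1 against 81.6 TPM in Rep2, where *SLC3A2* at 297 TPM led the list, and it lay furthest towards Rep1. *SLC38A5*, an amino acid carrier, lay furthest towards Rep2, with 15.4 TPM there and a listing at 0 in Rep1. *CAV1*, the coat protein of caveolae, was at 119 and 200 TPM. *HBB*, a globin gene of erythrocytes, was at 4515 TPM in Rep1 against 1087 TPM in Rep2, the same direction as *SLC2A1*, as was *ALAS2*, whereas the other 3 of the 5 listed erythrocyte genes were listed at 0 in Rep1 and at 0.338 to 1.06 TPM in Rep2. Of the 9 photoreceptor genes, 8 were also higher in Rep1 and 1 was lower. They summed to 4132 TPM in Rep1 against 6.52 TPM in Rep2. The part of erythrocyte and photoreceptor genes in the level of *SLC2A1* was not tested.

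Of 11 genes of Norrin and Wnt signalling, which induces the barrier, 6 were at least 2-fold lower and 3 at least 2-fold higher in Rep1 as deposited, and 4 in each direction once scaled. *LRP6*, a co-receptor, had the highest mean and lay furthest towards Rep1, at 236 TPM there and 24.3 TPM in Rep2, where *APCDD1*, a Wnt inhibitor, led the list at 83.9 TPM. Its relative *LRP5* lay furthest towards Rep2, at 24.9 TPM and a listing at 0 in Rep1. *NDP*, which encodes the ligand Norrin, was at 1.65 TPM in Rep1 against 20.1 TPM in Rep2, and its receptor *FZD4* at 6.15 and 3.02 TPM.

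Beside the endothelium, vessels carry pericytes and smooth muscle. Of 8 such markers, 5 were at least 2-fold lower and 1 at least 2-fold higher in Rep1, beside 51.3% and 14.8% of all genes, and 4 and 1 once scaled. The median log2 difference was -2.0 as deposited and -1.02 once scaled. They summed to 154.3 TPM in Rep1 against 742.0 TPM in Rep2, and *NOTCH3*, *ABCC9* and *CSPG4* were listed at 0 in Rep1. *ACTA2*, smooth muscle actin, was the most abundant at 83.2 and 498 TPM, *PDGFRB* lay furthest towards Rep2 at 4.16 and 61.3 TPM, and *KCNJ8* furthest towards Rep1 at 17.7 and 0.953 TPM. As deposited, the median differences of astrocytes (-2.17), oligodendrocytes (-2.43), microglia and macrophages (-2.11) and fibroblasts (-2.93) were also below that of the endothelial and barrier genes, -1.20. No test of these gaps was possible with 1 library on each side.

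**Figure D5:**
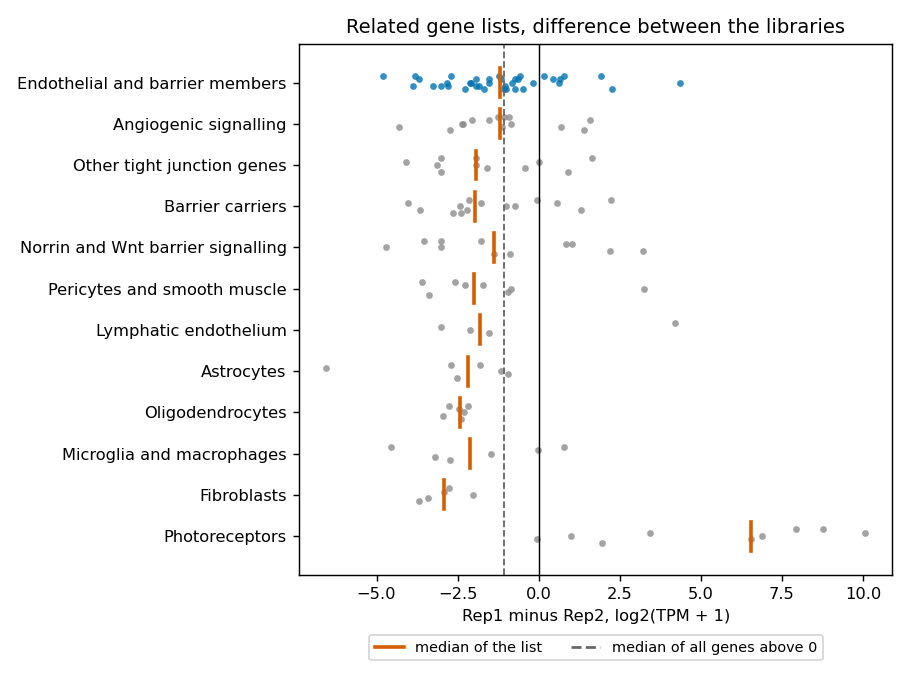
Difference between the libraries (Rep1 minus Rep2 on the log2(TPM + 1) scale) for each gene of the endothelial and barrier list (blue points) and of 11 related lists (grey points), with the median of each list in orange. The dashed line at -1.07 is the median of all genes above 0 in at least 1 library, the members' median lies at -1.20, and that of the photoreceptor list at 6.54.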

How the data were processed

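Total RNA of macaque optic nerve was sequenced by the authors, 1 condition with 2 libraries. They trimmed reads with Trim Galore 0.6.6, checked them with FastQC 0.11.9, aligned them to Mmul_10 with STAR 2.7.1a and counted them with featureCounts 1.5.3. The deposited values are TPM, which the authors made from counts and gene lengths, so that each library sums to 1000000 TPM. Column names do not match sample titles, so the columns served as replicates of the condition. The length and strand settings were not given in the sources used here.

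Values were analysed with Python 3.11, numpy 2.4.6 and pandas 2.3.3 and drawn with matplotlib 3.10.9. Levels are means with SD. Differences used log2(TPM + 1), which understates changes of low genes. Percentiles ranked mean TPM among genes above 0 in at least 1 library. Read numbers came from the ratio of a gene's TPM in both libraries, written as the smallest whole numbers at a relative tolerance of 1e-12, and 99.9% of the 10168 genes above 0 in both gave them, beside 5.98% with the constant changed by 1 part in 10000. Absolute depth is unknown, so no interval or detection floor is given. Scripts were checked on data with known answers. No p-value was computed. The analysis was repeated with a median-of-ratios scaling, with 0.1 as the pseudocount, without the 10 top genes by level, with a minimum mean of 1 TPM, with the geometric mean, with other ranking sets and on single libraries.

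All members are named by role. Other lists are given by counts and by their most abundant and extreme genes, and other genes only where the text turns on them. Members and lists were chosen with earlier results of these data known. The other experiments of the study were not analysed here.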

Additional observations from a re-analysis of the deposited data

How the results depend on the processing

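No paired analysis was possible because only 1 group was sampled. The median-of-ratios scaling moved the median difference and the 2-fold counts of the 38 members most. It brought their median log2 difference to -0.29, the number at least 2-fold lower in Rep1 to 15 and the number at least 2-fold higher to 8, and it turned *VEGFB* and *ICAM1* to 0.10 each. Under the other alternatives these counts ran from 22 to 25 and from 3 to 4, and the median from -1.49 to -1.22. That scaling also turned *FLT1* to 0.19, *TJP1* to 0.44, *ABCB1* to 0.62, *CLEC14A* to 0.30 and *NOSTRIN* to 0.71, all of them under 2-fold, and without the 10 most abundant genes *KDR* turned to -0.01. The members listed at 0 in Rep1 moved furthest with the pseudocount of 0.1, such as *ECSCR* from -4.80 to -8.08 and *ICAM2* from -0.81 to -3.10. The size of their differences thus depends on the pseudocount. The median mean level ran from 3.99 TPM as a geometric mean to 8.82 TPM without the 10 most abundant genes, and was 2.68 TPM in Rep1 alone and 10.3 TPM in Rep2 alone. With 2 libraries each value lies at a fixed number of SDs from the mean and the geometric mean lies between them, so single libraries and geometric means say nothing about stability. The depth of Rep1 limits levels below 10 TPM most.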

Other observations

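Of 4 markers of lymphatic endothelium, which other cells share in part, 3 were above 0 in both libraries. *LYVE1*, which perivascular macrophages also carry, was at 5.01 TPM in Rep1 against 47.4 TPM in Rep2, and *PDPN*, which meningeal cells share, at 7.21 and 34.4 TPM. *CCL21*, a chemokine of lymphatic endothelium, was at 1.90 TPM in Rep2 but 0 in Rep1, as was *FLT4*, the receptor of VEGF-C from the angiogenic list, with 1.09 TPM in Rep2. Platelet markers were scarce, since *GP9* and *GP1BA* were listed at 0 in both libraries, *PPBP* was at 1.38 and 0.482 TPM and *ITGA2B* at 1.81 TPM in Rep2 only. Of the 5 listed erythrocyte genes, *HBB* was at 4515 and 1087 TPM and *ALAS2*, an enzyme of haem synthesis in red cells, at 21.9 and 9.84 TPM, and the other 3 were listed at 0 in Rep1.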
